A study of Mus musculus with 6 samples.

Results

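Protein tyrosine phosphatases remove phosphate from tyrosine residues and so oppose or tune the tyrosine kinases. The genes described here are those whose symbol on the platform begins with Ptpn and a digit, Ptpr and letters only, or Ptp4a and a digit. There were 39 such genes, of which 38 had a probe set of their own, among 19938 genes tested. They comprised 18 receptor-type phosphatases, 17 non-receptor phosphatases, the PRL phosphatase genes Ptp4a2 and Ptp4a3, and Ptprcap. Ptprcap takes its name from CD45 but encodes a protein that binds CD45 and is no phosphatase. The remaining gene, Ptp4a1, was present only on probe sets shared with Gm13363 and Gm8783 and was given no value. Ptprt was not analysed here.

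RNA came from macrophages grown from the bone marrow of C57BL/6 mice for 7 days, either with CSF1 (M-CSF), giving M(CSF1) cells, or with CSF2 (GM-CSF), giving M(CSF2) cells. No other agent or allele is named in the labels, and no source used here gives the marker by which the cells were sorted. Each group held 3 samples hybridised to Affymetrix Mouse Gene 1.0 ST arrays, and the comparison asked which genes differ between the 2 kinds of cell. The labels call the samples biological replicates but do not say whether they came from separate mice, so a p-value weighs a difference only against the scatter of these 6 arrays, and that scatter may be technical.

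CSF1 acts through a receptor that is itself a tyrosine kinase, and CSF2 through a receptor that borrows the kinase JAK2, so phosphatases stand beside both signals. Receptor-type members span the membrane, and CD45 (Ptprc) and CD148 (Ptprj) are known in myeloid cells for removing the inhibitory phosphate from the tail of Src family kinases. Among the non-receptor members, SHP-1 (Ptpn6) binds phosphorylated inhibitory motifs of surface receptors and dampens signalling, while SHP-2 (Ptpn11) is needed for growth factor signalling to RAS.

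The median log2 value of an array ran from 3.91 to 4.00, and arrays correlated across all probe sets at 0.995 to 0.997 within a group and 0.954 to 0.959 between groups. All 9 listed macrophage markers, among them Lyz2, Adgre1 and Itgam, were above the level of olfactory receptor genes, the 95th percentile of which, 3.38, served as an empirical floor. These markers also moved with the groups, with 3 higher and 4 lower in M(CSF2) and a mean log2 level per array of 9.89 to 9.998 in M(CSF1) and 9.37 to 9.45 in M(CSF2). Exactly equal values on different arrays were common in the deposited table, occurring in 35% of genes and in 11 of the 38 members. Levels of different genes come from different probes and are not compared with each other.

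To show start sites of members that differed between the groups, RefSeq promoter windows of 300 bases (250 before and 50 after an annotated start) are given on GRCm38.p6 for Ptprm, which had the largest difference, and for Ptpre, Ptpn22 and Ptprj, which hold the STAT-type motif TTCNNNGAA and were called, meaning a limma adjusted p under 0.05. Both strands were searched for TTCNNNGAA, for the GC box GGGCGG, for the PU.1-type core GAGGAA and for the E box CACGTG, and capitals mark every match. None of the matches shown overlap.
Ptprm (chr17:67354410-67354709, minus strand): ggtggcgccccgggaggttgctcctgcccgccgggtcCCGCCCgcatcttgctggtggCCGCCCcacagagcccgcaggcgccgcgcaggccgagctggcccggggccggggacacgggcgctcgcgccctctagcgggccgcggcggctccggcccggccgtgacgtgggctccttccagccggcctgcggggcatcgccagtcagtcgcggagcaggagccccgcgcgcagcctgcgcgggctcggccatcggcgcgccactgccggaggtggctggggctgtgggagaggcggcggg
Ptpre (chr7:135593231-135593530, plus strand): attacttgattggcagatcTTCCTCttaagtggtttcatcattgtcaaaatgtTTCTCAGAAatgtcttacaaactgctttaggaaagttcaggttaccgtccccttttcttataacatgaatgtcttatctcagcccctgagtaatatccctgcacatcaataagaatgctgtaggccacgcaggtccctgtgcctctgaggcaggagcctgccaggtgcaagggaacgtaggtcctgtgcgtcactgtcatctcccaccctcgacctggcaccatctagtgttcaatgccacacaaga
Ptpn22 (chr3:103860027-103860326, plus strand): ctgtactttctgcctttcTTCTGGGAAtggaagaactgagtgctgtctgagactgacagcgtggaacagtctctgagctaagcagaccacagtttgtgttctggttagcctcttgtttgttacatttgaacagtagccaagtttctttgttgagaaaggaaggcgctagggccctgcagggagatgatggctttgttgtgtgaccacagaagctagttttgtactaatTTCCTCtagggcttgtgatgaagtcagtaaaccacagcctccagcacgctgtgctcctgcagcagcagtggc
Ptprj (chr2:90479125-90479424, minus strand): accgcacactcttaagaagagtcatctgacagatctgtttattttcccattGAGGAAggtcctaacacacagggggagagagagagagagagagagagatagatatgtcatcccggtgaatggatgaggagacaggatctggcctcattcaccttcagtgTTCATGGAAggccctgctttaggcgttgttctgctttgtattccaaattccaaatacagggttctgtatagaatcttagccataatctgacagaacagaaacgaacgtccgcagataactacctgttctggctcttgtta

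RefSeq gave 44 windows for 30 of the 38 members, since several genes have more than 1 annotated start. TTCNNNGAA was found in 5 member windows, those of Ptpre, Ptpn22, Ptprj, Ptprh and Ptpn23, against 8.3% of all 32851 windows. Those genes were higher (Ptpre), lower (Ptpn22 and Ptprj) or not called (Ptprh and Ptpn23) in M(CSF2). In the windows printed, the match began at position -197 in Ptpre, -232 in Ptpn22 and -90 in Ptprj, counted from the start site. The GC box was in 22 windows (35.7% of all windows), GAGGAA in 21 (28.3% of all) and CACGTG in 1, of Ptprs (7.15% of all). Median G and C content was 62.7% over the 44 member windows and 52.7% over all windows, and its part in these counts was not tested. The Ptprm window was 80.7% G and C, and the Ptpre window 47%. A match is a run of letters and was not tested as a binding site, and the arrays do not tell which start a transcript used.

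In M(CSF2) cells the adhesion phosphatase Ptprm was 24.0-fold lower and the PRL gene Ptp4a3 4.47-fold lower. Ptpn22 fell to the olfactory receptor level, by at least 4.27-fold in its mean, and Ptprj, Ptpn6 and Ptprc fell by smaller amounts. Ptpre, Ptpn3 and Ptprs rose. Of the 38 members, 12 were called by limma at an adjusted p under 0.05, which is 31.6%, close to the 27.5% called among all genes. There were 4 higher (11.9% of all genes) and 8 lower (15.6% of all genes). At least 2-fold differences were called for 6 members (7.99% of all genes), 2 higher (3.57% of all genes) and 4 lower (4.42% of all genes). The 2 groups did not overlap in 17 members, against 38.9% of all genes. The median difference was 0.03 on the log2 scale over the members and 0.04 over all genes. In bulk samples, fewer cells of a type and less RNA per cell cannot be told apart. Some markers of other myeloid cells moved with the groups. Of 10 mast cell and basophil genes 4 were higher and 0 lower, but only 3 of these 4 were above the olfactory receptor level on an array. In this list 6 of the 10 were never above it, and the mean log2 level per array was 3.10 to 3.29 in M(CSF1) and 4.05 to 4.12 in M(CSF2). Of 12 neutrophil genes 3 were higher and 0 lower, but only 2 of these 3 were above that level on an array. Here 5 of the 12 were never above it, and the mean level was 3.69 to 3.89 in M(CSF1) and 4.33 to 4.51 in M(CSF2). Of the macrophage markers, Aif1 fell by 4.52, Fcgr1 by 1.23 and Adgre1 by 1.18, while Cd14 rose by 1.71 and Cd68 by 0.89 (Aif1, Fcgr1, Cd14 and Cd68 were named after their values were seen). The part of any of these marker changes in the phosphatase results, the falls of Ptprm, Ptprj, Ptprc and Ptpn6 included, was not tested.

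**Figure D1:**
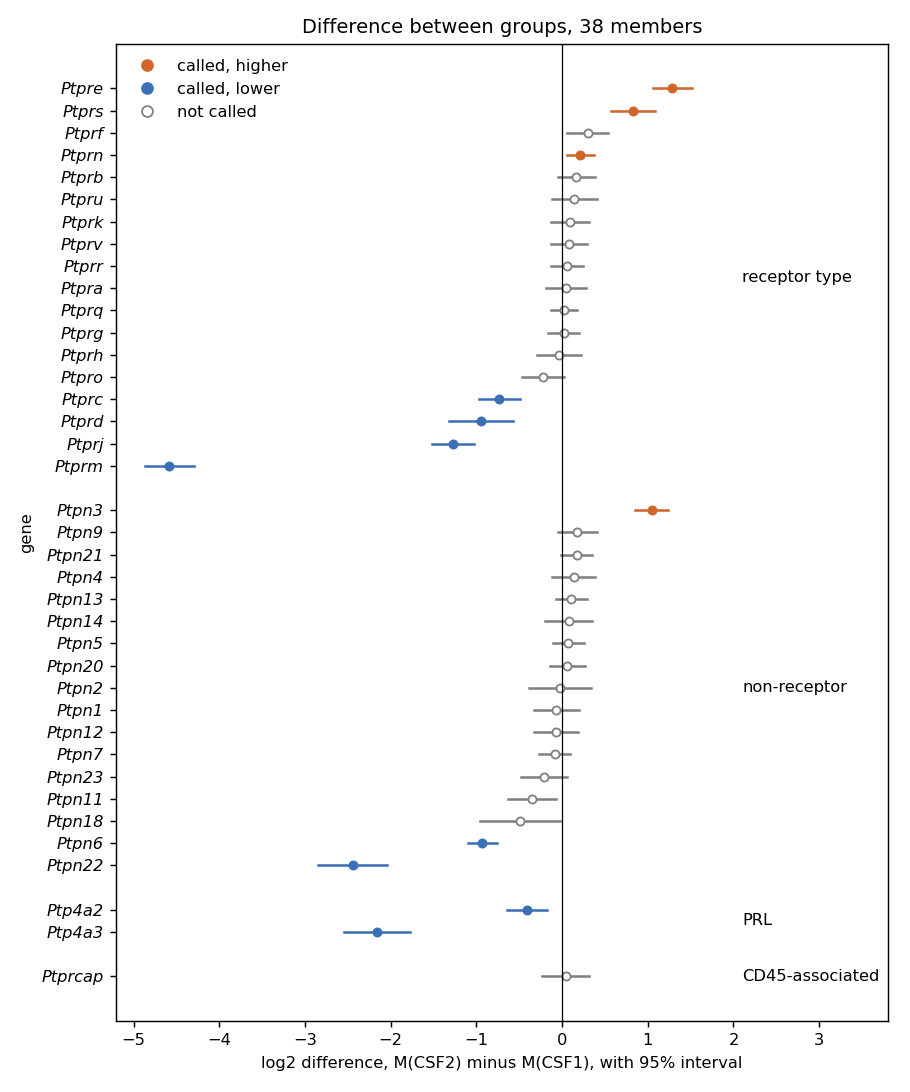
Log2 difference, M(CSF2) minus M(CSF1), of each of the 38 members, with its 95% interval from limma, grouped by type. Filled points are called (orange higher, blue lower) and open points are not. Ptprm at -4.59 lies far from all others, and the members not called lie between -0.49 and 0.30.

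Receptor-type genes had 7 of 18 called, 3 higher and 4 lower, with a median difference of 0.05. Non-receptor genes had 3 of 17 called, 1 higher and 2 lower, with a median of -0.02. The share over all genes, 27.5% (11.9% higher and 15.6% lower), lies between the 38.9% of receptor and the 17.6% of non-receptor genes. Both PRL genes were lower. The difference between these 2 shares was not tested, since genes are not replicates of a condition.

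Ptprm, also called RPTP-mu, binds to copies of itself on neighbouring cells and associates with cadherins. It read 9.50, 9.42 and 9.08 on the M(CSF1) arrays and 4.62, 4.78 and 4.85 on the M(CSF2) arrays. All 3 M(CSF1) arrays were far above all 3 M(CSF2) arrays, and the M(CSF2) arrays were still above the olfactory receptor level. The fall was 4.59 on the log2 scale (SE 0.12, limma adjusted p = 4.5e-07), or 24.0-fold (95% interval 19.7 to 29.3). Its classmates Ptprk and Ptpru were dim on every array, near the olfactory receptor level, and were not called, with differences of 0.09 (95% interval -0.13 to 0.31) and 0.14 (-0.12 to 0.41). Endothelial cells also carry Ptprm. Of 7 endothelial markers, 2 were higher in M(CSF2), 0 lower and 2 never above the olfactory receptor level. Their mean log2 level per array lay at 3.59 to 3.62 in M(CSF1) and 4.27 to 4.35 in M(CSF2). The part of endothelial cells in the Ptprm result was not tested.

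The CD45 and CD148 genes were both bright and both lower in M(CSF2). Ptprj read 10.28, 10.21 and 10.07 in M(CSF1) and 8.93, 8.73 and 9.07 in M(CSF2), without overlap. It fell by 1.27 (SE 0.11, limma adjusted p = 7.2e-05), a 2.42-fold difference (95% interval 2.04 to 2.87), and its dimmer probe set fell by 1.32. Ptprc, the common leukocyte antigen that all blood cell lineages except mature red cells and platelets carry, read 9.22, 9.06 and 9.04 against 8.52, 8.19 and 8.41. The lowest M(CSF1) array was above the highest M(CSF2) array, and the difference was 1.66-fold (95% interval 1.41 to 1.96, limma adjusted p = 0.0012). Ptprcap read 4.61, 4.45 and 4.91 in M(CSF1) and exactly 4.70 on all 3 M(CSF2) arrays, a difference of 0.04 (95% interval -0.23 to 0.31), and was not called.

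Ptpre and Ptpra form a pair of closely related receptors with short extracellular parts, and both can act on Src family kinases. Ptpre read 7.21, 7.21 and 6.98 in M(CSF1) and 8.45, 8.29 and 8.53 in M(CSF2), so every M(CSF2) array was higher. It rose by 1.29 (SE 0.10, limma adjusted p = 4.6e-05), a 2.44-fold difference (95% interval 2.09 to 2.86). Ptpra read 7.28, 7.28 and 7.13 against 7.28, 7.11 and 7.43, overlapping groups with a difference of 0.04 (95% interval -0.18 to 0.27). The rise of Ptpre exceeded the difference of Ptpra by 1.24 (SE 0.04, n = 3 arrays a group).

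The genes for the related receptors LAR (Ptprf), Ptprd and Ptprs, known for binding proteoglycans and synaptic adhesion proteins, went different ways. Ptprs read 5.77, 5.58 and 5.41 in M(CSF1) and 6.43, 6.28 and 6.53 in M(CSF2). It rose without overlap, by 0.82 (SE 0.11, limma adjusted p = 0.00094). Ptprd read 4.66, 4.08 and 4.04 in M(CSF1), where 1 array stood above the other two. In M(CSF2) it read 3.25, 3.33 and 3.37, all at the olfactory receptor level, which makes it at least 1.84-fold lower (limma adjusted p = 0.0030). Ptprf stayed dim, at 3.75 ± 0.15 and 4.06 ± 0.12 (SD, n = 3 arrays each), and missed the threshold at limma adjusted p = 0.067 with groups that did not overlap.

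Ptprn encodes IA-2, a protein of secretory granules without phosphatase activity. It read 5.14, 5.16 and 5.08 in M(CSF1) and 5.30, 5.34 and 5.39 in M(CSF2), a rise of 0.21 (SE 0.07, limma adjusted p = 0.048). This call was lost when any single array was left out (adjusted p up to 0.122, without M(CSF2) replicate 3) and when arrays were centred on their medians (0.17, adjusted p = 0.17). Of the receptor-type genes 11 were not called, among them Ptpra, Ptprf, Ptprk and Ptpru above. Ptpro, a podocyte and leukocyte phosphatase, averaged 4.88 ± 0.11 with CSF1 and 4.66 ± 0.17 with CSF2 (SD over 3 arrays), and did not pass (limma adjusted p = 0.18) although its groups did not overlap. Ptprb, the endothelial VE-PTP, Ptprh, Ptprq and Ptprr were at or below the olfactory receptor level on all 6 arrays, so no fold was measured for them. Ptprg and Ptprv had differences of 0.02 and 0.08, also close to that level.

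**Figure D2:**
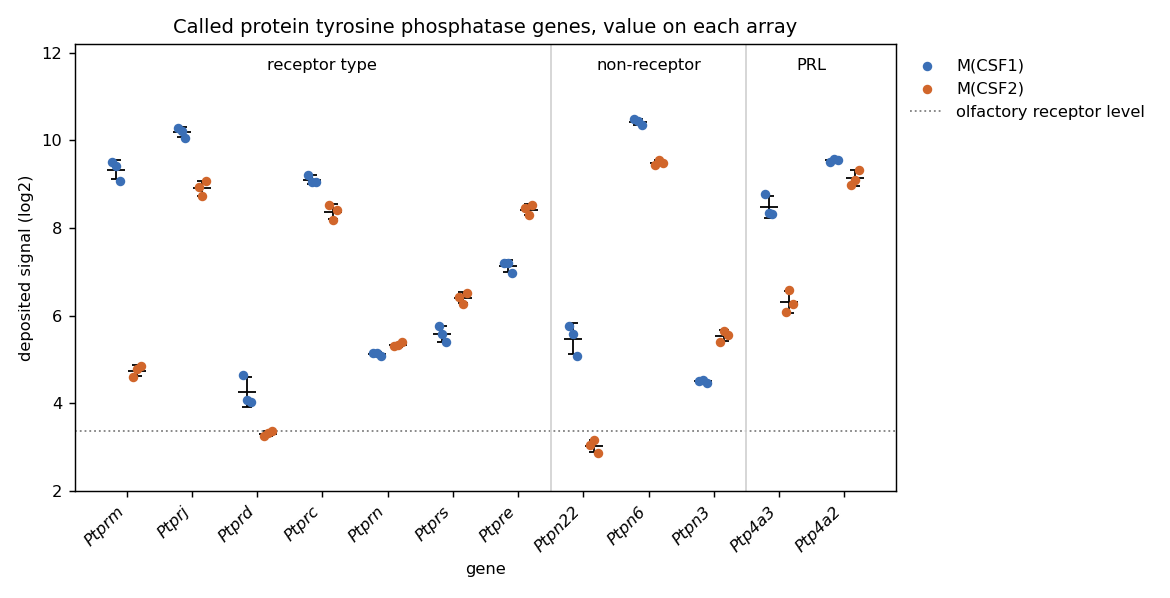
Deposited log2 signal on each of the 6 arrays for the 12 called members, blue for M(CSF1) and orange for M(CSF2), with the group mean and SD in black and the olfactory receptor level (3.38) dotted. The groups are separate in every gene shown, and Ptprd and Ptpn22 reach the dotted line in M(CSF2).

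Among the non-receptor phosphatases, the genes of the SH2-domain pair differed in size of change. Ptpn6, which encodes SHP-1, read 10.49, 10.44 and 10.34 in M(CSF1) and 9.43, 9.54 and 9.50 in M(CSF2). It fell by 0.93 (SE 0.07, limma adjusted p = 5.5e-05), a 1.91-fold difference (95% interval 1.70 to 2.15) with no overlap. Ptpn11, which encodes SHP-2, read 7.77, 7.63 and 7.54 against 7.29, 7.09 and 7.52, barely separate groups. Its difference of -0.35 missed the threshold (limma adjusted p = 0.071). Without M(CSF2) replicate 3 it was -0.46 and passed (adjusted p = 0.024), and it also passed when genes below the median signal were left out (adjusted p = 0.036).

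The PEST-type genes were Ptpn12, Ptpn18 and Ptpn22. Ptpn22, known in lymphocytes as the partner of the kinase CSK that restrains antigen receptor signalling, read 5.76, 5.59 and 5.08 in M(CSF1) and 3.05, 3.17 and 2.88 in M(CSF2). All M(CSF2) arrays were at the olfactory receptor level, so it was at least 4.27-fold lower (fitted fall 2.44, SE 0.17, limma adjusted p = 3.2e-05). Lymphocytes are rich in this gene. Of 8 T cell markers 1 (Cd4) was lower and 3 were never above the olfactory receptor level. Of 6 B cell markers 1 (Cd79b, 7.41 to 5.21) was lower and 2 were never above it, and of 6 NK cell markers 0 were called and 5 were never above it. Mean levels per array of the T cell list were 3.33 to 3.45 in M(CSF1) and 3.29 to 3.39 in M(CSF2), of the B cell list 3.81 to 4.22 and 3.56 to 3.62, and of the NK cell list 2.80 to 2.89 and 2.84 to 2.88. Cd3e, a chain of the T cell receptor complex, gave 4.16 ± 0.09 and 4.22 ± 0.05 (SD, n = 3 arrays each). The part of lymphocytes in the fall of Ptpn22 was not tested.

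Ptpn12, or PTP-PEST, which acts on adhesion and podosome proteins, read 8.06, 8.05 and 7.94 in M(CSF1) and 8.0, 7.72 and 8.12 in M(CSF2). The groups overlapped, and the difference of -0.07 had a 95% interval of -0.32 to 0.19. Ptpn18 was dim and variable, at 4.20 ± 0.33 and 3.71 ± 0.31 (SD, n = 3 arrays each, limma adjusted p = 0.12), and passed without M(CSF1) replicate 2 (adjusted p = 0.049). Ptpn1, or PTP1B, an enzyme of the endoplasmic reticulum surface that acts on the insulin receptor and JAK2, read 9.59, 9.59 and 9.43 against 9.44, 9.29 and 9.68. These values overlapped too, with a difference of -0.07 (95% interval -0.33 to 0.19). Its relative Ptpn2, which acts on JAK1 and JAK3, gave -0.02 (-0.39 to 0.34).

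Ptpn3 encodes a phosphatase with a FERM and a PDZ domain and was the only non-receptor gene called higher. Its brightest probe set read 4.52, 4.53 and 4.46 in M(CSF1) and 5.41, 5.66 and 5.57 in M(CSF2), without overlap. It rose by 1.04 (SE 0.08, limma adjusted p = 5.7e-05), a 2.06-fold difference (95% interval 1.81 to 2.36). The platform has 12 probe sets for it. All 12 gave a higher mean in M(CSF2), between 0.27 and 1.78 with a median of 0.94, and 11 passed in a limma fit over all probe sets with 1 gene. These probe sets read the same RNA samples and are not replicates. Its relative Ptpn4 was near the olfactory receptor level, at 3.35 ± 0.19 and 3.49 ± 0.09 (SD, n = 3 arrays each, limma adjusted p = 0.42).

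**Figure D3:**
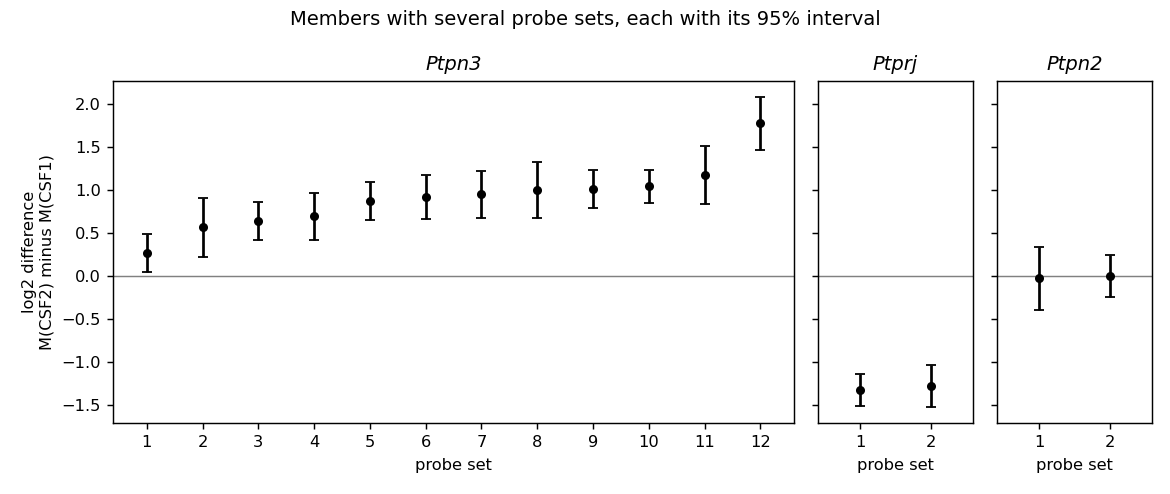
Log2 difference, M(CSF2) minus M(CSF1), of each probe set of the 3 members with more than 1, ordered by size, with its 95% interval. All 12 of Ptpn3 lie above 0, both of Ptprj lie below 0, at -1.27 and -1.32, and both of Ptpn2 lie near 0.

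The other non-receptor genes were not called. Ptpn7, a leukocyte phosphatase that binds MAP kinases, gave 7.49 ± 0.05 and 7.41 ± 0.10 (SD, n = 3 arrays each). Ptpn9 and Ptpn23, which act on vesicles and endosomes, gave differences of 0.18 (95% interval -0.05 to 0.41) and -0.21 (-0.48 to 0.05). Ptpn5, Ptpn14 and Ptpn21 were dim, with differences of 0.07, 0.08 and 0.17. Ptpn13 and Ptpn20 were at or below the olfactory receptor level on all arrays, which together with Ptprb, Ptprh, Ptprq and Ptprr makes 6 members without a measured level.

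The PRL phosphatases are small enzymes anchored to membranes by a lipid tail, and they bind the CNNM magnesium transport proteins. Ptp4a3, or PRL-3, read 8.78, 8.35 and 8.32 in M(CSF1) and 6.10, 6.59 and 6.26 in M(CSF2). The groups were far apart, with a fall of 2.16 (SE 0.16, limma adjusted p = 4.7e-05) and a 4.47-fold difference (95% interval 3.43 to 5.83). Ptp4a2 read 9.50, 9.58 and 9.56 against 8.98, 9.09 and 9.33, a fall of 0.41 (SE 0.10, limma adjusted p = 0.017). When each array in turn was omitted, Ptp4a2 was called 1 time in 6, and its adjusted p reached 0.075 on omitting M(CSF1) replicate 2. Of the 4 CNNM genes, Cnnm2 rose by 0.89 and Cnnm4 fell by 0.62, and the other two were not called. Transcripts of cell cycle genes moved with the groups as well, and all 13 measured were lower in M(CSF2). Their mean level per array was 7.30 to 7.48 in M(CSF1) and 5.14 to 5.28 in M(CSF2). Proliferation was not measured, and the part of these falls in any phosphatase result was not tested.

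Members of the same structural class were set against each other in 31 pairs, by the difference between the 2 genes on each array. Sizes are given only for pairs in which both genes were above the olfactory receptor level on all arrays. The fall of Ptpn6 in M(CSF2) exceeded that of Ptpn11 by 0.58 (SE 0.14), and the fall of Ptp4a3 exceeded that of Ptp4a2 by 1.75 (SE 0.24). In both pairs, and in that of Ptpre and Ptpra, the 3 arrays of each group did not overlap, as in 20 of the 31 pairs in all, among them Ptprb against Ptprh, both at or below that level. Pairs share genes, Ptprj and Ptprm among them, so the pairs are not independent. Of single genes, 38.9% of all did not overlap, and the share over pairs of other genes was not computed. Without overlap the result is p = 0.1 in a 2-sided exact permutation test, the smallest that 3 against 3 arrays allow, and 0.155 after Benjamini-Hochberg adjustment over the 31 pairs.

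The genes around these enzymes were taken from lists of partners and substrates. Of all genes 11.9% were called higher and 15.6% lower, 27.5% together, and of genes above the olfactory receptor level on an array 38.3% were called. Of 22 genes listed as receptors with inhibitory motifs that recruit SHP-1 or SHP-2, 8 were higher, 9 lower and 5 not called. That is 77.3% called, with a median of 0.02 against 0.04 over all genes. Whether each mouse receptor in the list, Cd33 included, has such a motif was not examined here. The sialic acid lectin Cd33 rose by 3.96 (limma adjusted p = 8.0e-07) and Cd300lf by 2.80. The lectins Clec12a and Siglece fell by 2.79 and 2.41. Large differences of both signs stood in this list. Of the adaptors around SHP-1 and SHP-2, 2 of 17 were higher and 9 lower (64.7% called, median -0.40). The RAS exchange factor Sos1 fell by 2.86 (limma adjusted p = 3.1e-06), Gab3 was lower by at least 2.16-fold and reached the olfactory receptor level, and Shc1 and Pag1 rose by 0.59 and 0.37.

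Of the 7 measured Src family genes and their brakes, 1 was higher and 3 lower (57.1% called). Src itself rose by 1.70 (limma adjusted p = 4.1e-05), and Fyn fell by 1.92 and Fgr by 1.03. Csk, the kinase that adds the tail phosphate CD45 and CD148 remove, and named after its value was seen, fell by 0.84 (limma adjusted p = 0.00018). Among 24 kinases, receptors and STAT factors on which tyrosine phosphatases act, 11 were higher and 2 lower (54.2% called, median 0.31, against 0.04 over all genes). The STAT factors measured in this list were the transcription factors Stat3, Stat5a, Stat5b and Stat6. The CSF2 receptor chains Csf2rb2, Csf2rb and Csf2ra rose by 4.21, 3.62 and 1.25, and Csf1r by 0.60, while Csf3r fell by 1.57 and Abl1 by 0.58. Jak2, also named after its value was seen, rose by 1.18.

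Partners of the PTP-PEST enzymes had 1 of 10 higher and 4 lower (50% called, median -0.25). The adaptor Fyb fell by 1.92 and the cytoskeletal linker Pstpip1 by 0.77, while Pstpip2 rose by 0.47. Of 25 genes listed as ligands or partners of receptor-type enzymes, 4 were higher and 2 lower. That is 24% called, near the 27.5% of all genes, with a median of 0.01. Whether each listed gene, Cd47 included, binds such an enzyme was not examined here. Thrombospondin, Thbs1, a ligand of CD148, rose by 4.90 (limma adjusted p = 4.7e-06), and the galectin Lgals3 by 2.52. The galectin Lgals1, a CD45 ligand, fell by 0.73 (limma adjusted p = 0.00062), and Cd47 by 0.35 at a limma adjusted p of 0.047, a call that was lost with all but 1 of the arrays left out in turn (adjusted p = 0.16 without M(CSF1) replicate 1). The mean of the probe sets of Cd47 fell by 0.58. Related phosphatases outside the symbol pattern had 1 of 25 higher and 7 lower (32% called, also near that of all genes, median -0.07). The cofilin phosphatase Ssh2 fell by 1.69 (limma adjusted p = 0.00041) and the pseudophosphatase Styx by 0.98, which lost its call without M(CSF1) replicate 1 (-0.90, adjusted p = 0.066) and was -0.54 as the mean of its probe sets, and Eya3 rose by 0.58.

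**Figure D4:**
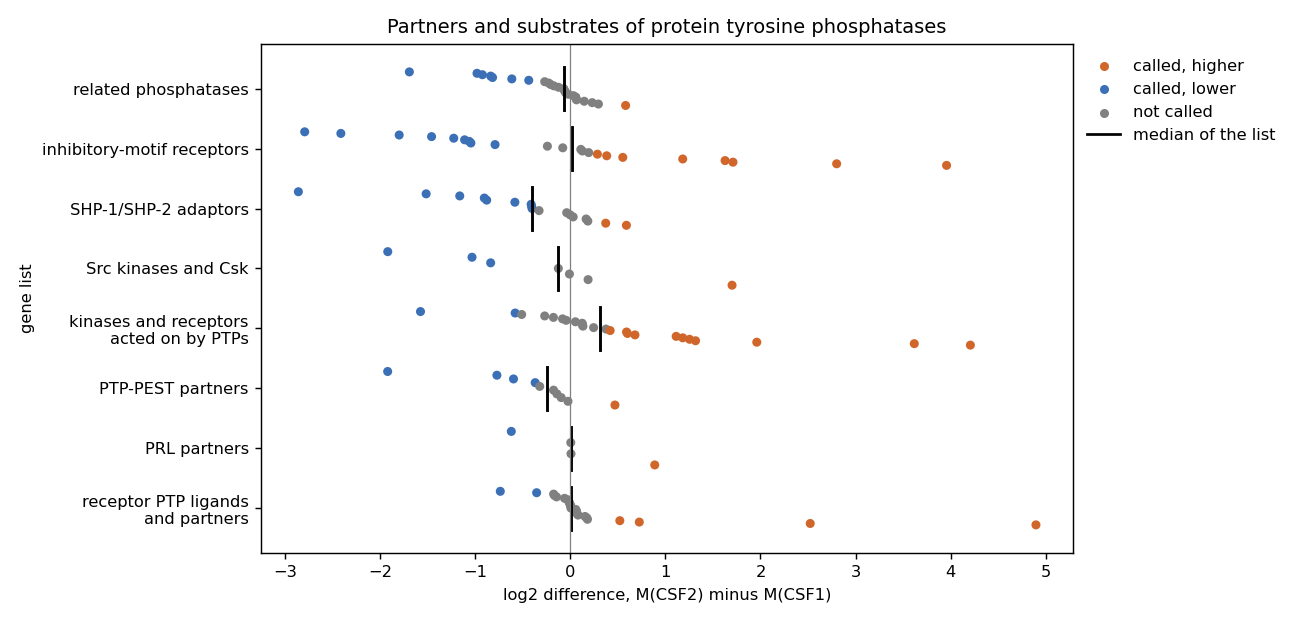
Log2 difference, M(CSF2) minus M(CSF1), of each measured gene of 8 lists of phosphatase partners and substrates, 1 point per gene, coloured by call, with the median of each list as a black bar. The genes listed as inhibitory-motif receptors spread from -2.79 to 3.96 around a median of 0.02, and the adaptors have their median at -0.40.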

How the data were processed

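The deposited table holds the authors' log2 values for 28941 probe sets on 6 arrays. Base 2 was inferred from their range. Per the submitters' processing notes the tool was MAS5. Background correction, normalization and probe summary are not given in the sources used here. Of the probe sets, 21789 named exactly 1 gene, 1621 several and 5531 none (symbols updated through RefSeq GRCm38.p6 for 21698). Each of 19938 genes took its brightest probe set by mean over all arrays. Differences were fitted over all genes with limma 3.58.1 in R 4.3.3 (lmFit, eBayes, 2-sided, Benjamini-Hochberg), checked on simulated data, and an adjusted p under 0.05 is a call. Where the dimmer group lay wholly at or below 3.38 (95th percentile of 1027 olfactory receptor genes, a floor set after the data were examined), the fold is a lower bound against that floor. This bound uses the mean of the brighter group and leaves out its sampling error. Precision is set by having 3 arrays a group. The members and lists were chosen with earlier results of these data known. Values per array are given for members called at 2-fold or at 8 or more, for other called members, and for Ptpra, Ptpn11 and Ptprcap. Up to 2 called genes per direction are named from each partner list, with Csf1r, Csf2ra and Csf2rb as receptors of the inducers, and the 3 brightest of each marker list. Alternatives were other scalings, filters on dim genes, averaging probe sets, trend or robust variance, a replicate block and omitting each array.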

Additional observations from a re-analysis of the deposited data

How the results depend on the processing

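Of the 12 called members, 10 were called under each of the 14 alternatives that tested them, and the exceptions were Ptprn and Ptp4a2. Of the 26 members not called, 2 passed under some alternative, Ptpn11 and Ptpn18. The count of called members ran from 10 to 12 with an array left out, of receptor-type members was 6 each time, of non-receptor members ran from 3 to 4, and of all genes from 4254 to 5490. Same-numbered samples did not deviate together (correlations 0.004, -0.04 and -0.25, and 0 of 6 samples correlated best with their own number). With the replicate number as a block, 11 members and 5072 genes were called, Ptprn was lost (adjusted p = 0.145), and so was Cd47 (adjusted p = 0.082). A filter that left out genes at or below the olfactory receptor level on all arrays was chosen after the data were examined and gave 12 members, with Ptpn11 in and Ptprn out. Signs of small differences that were never called turned in some settings. After quantile normalization Ptpn2 was 0.065, Ptprg -0.035, Ptprq -0.018 and Pax5 -0.015. With arrays centred on their medians Ptprcap was -0.0028, Ptprg -0.025, Ptprq -0.020 and Pax5 -0.025. With an array left out, Ptpn1 ran from -0.17 to 0.025, Ptpn12 from -0.15 to 0.046, Ptpn14 from -0.0094 to 0.21, Ptpn2 from -0.18 to 0.16, Ptpra from -0.035 to 0.13, Ptprcap from -0.063 to 0.17, Ptprg from -0.032 to 0.070, Ptprh from -0.13 to 0.030, Ptprq from -0.0024 to 0.037, Ptprv from -0.0074 to 0.13, Cd247 from -0.069 to 0.0091, Pax5 from -0.12 to 0.13, Eomes from -0.066 to 0.070 and Col1a1 from -0.15 to 0.12. Signal over background limits the 6 members that never rose above the olfactory receptor level, and 3 arrays a group limit every comparison.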

Other observations

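The stromal, mast cell and neutrophil marker lists fixed for the phosphatase results had called members too. Those called were 2 of 9 stromal (22.2%), 4 of 10 mast cell and basophil (40%) and 3 of 12 neutrophil markers (25%), against 27.5% of all genes. In M(CSF2), Dcn (3.58 to 6.88), Hdc (3.85 to 8.27), Gata2 (4.54 to 7.06), Kit (4.32 to 5.63), Mmp8 (6.60 to 11.04) and S100a8 (6.09 to 8.46) were higher on the log2 scale. Postn, named after its value was seen, was the 1 stromal marker called lower and fell by 2.91. Col1a1 (5.11 and 5.07), Col3a1 (4.87 and 5.17) and S100a9 (4.55 and 4.21) were not called, although S100a9 passed after quantile normalization (adjusted p = 0.048) and Col3a1 without M(CSF1) replicate 3 (adjusted p = 0.034). Of the endothelial markers, Kdr went from 4.54 to 8.07 and Cdh5 from 3.69 to 4.72, while Cldn5 gave 4.07 and 4.18. Among the lymphocyte markers Cd247 (4.17 and 4.15), Pax5 (4.20 and 4.22), Cd79a (3.14 and 3.44), Prf1 (4.00 and 3.97), Eomes (2.78 and 2.78) and Klrk1 (2.80 and 2.71) were not called, and Cd4 went from 4.21 to 3.34. The bright cell cycle genes Pcna, Mcm2 and Mki67 fell by 0.98, 2.03 and 1.32.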
